A study of Mus musculus with 12 samples.

Results

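Cytochrome c oxidase, complex IV of the respiratory chain, was examined gene by gene in the inguinal white adipose tissue (iWAT, a subcutaneous fat depot) of mice kept at room temperature (RT) or exposed to cold for 24 h. The members were the listed genes whose symbol starts with Cox followed by a digit, together with Sco1, Sco2, Surf1 and Cycs, which came to 29 of the 14159 genes listed. All 29 passed the filter on low values, Cox6a2 only through high values in a few libraries, given below. Bulk RNA-seq of polyA RNA had been made from 4 groups of 3 libraries, all on a C57BL/6 background. Atf4WT mice, littermate controls, carried floxed Atf4 alleles without Cre, and Atf4AKO mice carried the same floxed alleles with Adiponectin-Cre, which is active in adipocytes, so the other cells of the depot keep an intact Atf4. Each genotype was sampled at RT and after cold. The 3 libraries of a group are labelled as biological replicates, and the labels give neither the age of the mice nor whether a library came from 1 animal or a pool, so the p-values measure the spread between these libraries.

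Complex IV passes electrons from cytochrome c to oxygen, the last step of the respiratory chain, and pumps protons as it does so. Its catalytic core is encoded by mitochondrial DNA, and a ring of small nuclear-encoded subunits surrounds the core. Several of these subunits exist as a ubiquitous form and a second form made in particular tissues. Cox7a1, Cox6a2 and Cox8b are the heart and skeletal muscle forms of their subunits, and Cox7a1 and Cox8b are also widely used as markers of brown and beige fat. Cox4i2 is known from lung and from cells of the vessel wall, and Cox6b2 from testis. Building the enzyme also needs heme A, made by Cox10 and Cox15, and copper, which is passed on by Cox17, Sco1, Sco2 and Cox11. In brown and beige adipocytes the respiratory chain supplies the proton gradient that Ucp1 dissipates as heat.

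Depth was even, from 25719476 to 29105147 reads on listed genes per library. Atf4 itself, the targeted gene, had normalized counts of 4107 to 7644 in the Atf4WT libraries and of 788 to 1639 in the Atf4AKO libraries, which did not overlap. The 10 thermogenic adipocyte markers summed to between 7679 and 11427 normalized counts at RT and to between 115450 and 189300 after cold. Skeletal muscle genes stood apart in 3 libraries: the 16 muscle genes listed of 27 summed to 125588 in Atf4WT RT replicate 2, to 44254 in Atf4WT cold replicate 0 and to 6589 in Atf4AKO cold replicate 1, against 1570 to 2644 in the other 9 libraries. The lymphocyte markers were also uneven. The 15 B cell genes listed of 18 summed to between 5409 and 18253 in Atf4WT cold against 203 to 872 in Atf4AKO cold, and the 19 T cell genes of 20 to between 1407 and 11238 against 273 to 743, while Atf4WT RT replicate 2 had a B cell sum of 5470. The part of these cells in the results was not tested beyond the fits given beside them. In bulk tissue, fewer cells of a type and less RNA per cell cannot be told apart.

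The promoters of 4 members are shown because these 4 genes had the largest rises with cold, given below; Cox7a1 and Cox8b are tissue isoforms, and Cycs and Cox10 serve every cell. Each is a window of 300 bases, with 250 before the start site and 50 after, taken from RefSeq on build GRCm38.p6 and written 5′ to 3′ on the strand of the gene. Capitals mark matches to the motifs searched.
Cycs, chr6:50566520-50566819, minus strand: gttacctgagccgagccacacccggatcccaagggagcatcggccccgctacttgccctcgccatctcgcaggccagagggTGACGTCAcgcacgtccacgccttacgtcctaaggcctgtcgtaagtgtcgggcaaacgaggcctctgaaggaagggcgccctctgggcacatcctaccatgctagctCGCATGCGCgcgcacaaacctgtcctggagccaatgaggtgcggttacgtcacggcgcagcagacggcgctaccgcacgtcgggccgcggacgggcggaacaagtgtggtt
Cox10, chr11:64079423-64079722, minus strand: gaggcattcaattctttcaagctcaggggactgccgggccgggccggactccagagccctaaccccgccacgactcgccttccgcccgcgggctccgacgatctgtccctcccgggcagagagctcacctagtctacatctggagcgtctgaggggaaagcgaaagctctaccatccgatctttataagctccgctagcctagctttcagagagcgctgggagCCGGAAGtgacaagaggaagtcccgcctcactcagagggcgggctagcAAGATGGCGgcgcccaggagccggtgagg
Cox7a1, chr7:30183921-30184220, plus strand: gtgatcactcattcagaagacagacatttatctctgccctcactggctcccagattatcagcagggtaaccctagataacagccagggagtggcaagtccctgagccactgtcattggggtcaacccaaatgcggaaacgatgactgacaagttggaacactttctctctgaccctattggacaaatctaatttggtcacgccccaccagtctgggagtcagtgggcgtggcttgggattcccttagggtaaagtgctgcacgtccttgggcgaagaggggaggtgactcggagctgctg
Cox8b, chr7:140900397-140900696, minus strand: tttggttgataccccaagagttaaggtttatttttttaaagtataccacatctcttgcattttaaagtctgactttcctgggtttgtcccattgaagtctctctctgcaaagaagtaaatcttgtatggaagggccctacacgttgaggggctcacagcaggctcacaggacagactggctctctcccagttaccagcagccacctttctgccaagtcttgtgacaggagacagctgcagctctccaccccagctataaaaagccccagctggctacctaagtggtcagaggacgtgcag

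The motifs were searched on both strands of 32851 promoter windows, and 23 of the 29 members had a window, all but Cox4i1, Cox4i2, Cox6a2, Cox6c, Cox17 and Cox18. The NRF1 site GCGCATGCG was in the windows of Cycs and Cox6a1 and in 1.75% of all windows. In Cycs it read on the opposite strand from position -61, and the cyclic AMP response element TGACGTCA, found in 1.79% of all windows, lay at position -169. The ETS site CCGGAAG was in the windows of 10 members (Cox10, Cox14, Cox15, Cox16, Cox20, Cox6a1, Cox6b1, Cox8a, Sco1 and Surf1) and in 8.86% of all windows. Cox10 held it at position -27 together with the YY1 site AAGATGGCG at position 22, a motif in 1.40% of all windows. No member window held TCAAGGTCA, the site of the estrogen-related receptors, which was in 0.423% of all windows, and none held TGATGNAA, the composite element that ATF4 can bind, which was in 3.97%. The windows of Cox7a1 and Cox8b held none of the 6 motifs. These matches describe letters in a window and were not measured as binding sites.

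In Atf4WT mice, cold raised 22 of the 29 members and lowered 1 (limma, Benjamini-Hochberg adjusted p under 0.05 over the 13404 genes tested), where 17.0% of all tested genes rose and 14.9% fell. In Atf4AKO mice, cold raised 20 members and lowered none, beside 14.8% and 11.0% of all tested genes. At an unadjusted p under 0.05, 24 members in Atf4WT and 25 in Atf4AKO differed in either direction. Of the 13404 tested genes, 5820 and 5235 did. The median log2 fold change of the members was 0.59 in Atf4WT and 0.64 in Atf4AKO, against 0.003 and -0.03 over all tested genes. In Atf4WT, 21 members were higher in every cold library than in every RT library and 1 was lower, beside 23.9% and 22.9% of all tested genes. In Atf4AKO these counts were 22 and 1, beside 21.7% and 19.9%. The 20 members called in Atf4AKO were all among the 23 called in Atf4WT, and the other 3 were Sco2, Cox6c and Cox4i2. No member reached the threshold for a different cold response between the genotypes.

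**Figure D1:**
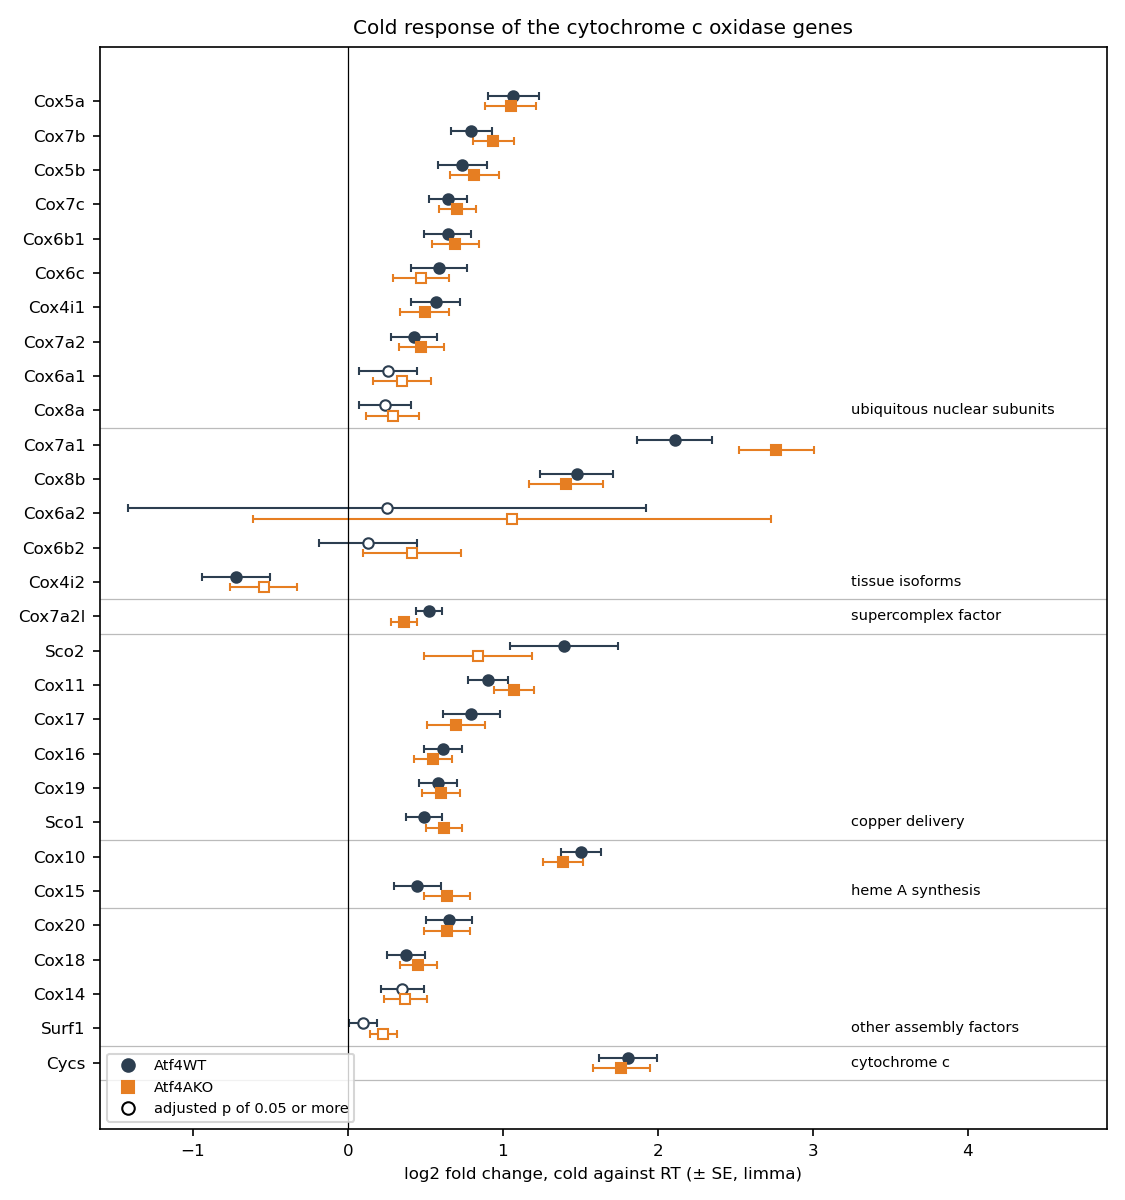
Log2 fold change of each of the 29 genes between cold and RT on the horizontal axis, with its standard error, for Atf4WT (circles) and Atf4AKO (squares), grouped by role; open symbols had an adjusted p of 0.05 or more. Cox7a1, Cycs, Cox8b and Cox10 lie farthest to the right in Atf4WT, Cox4i2 is the one gene left of 0, and Cox6a2 has the widest errors.

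For the ubiquitous nuclear subunits, the summed normalized count went from 109264 ± 11218 at RT to 161259 ± 27489 after cold in Atf4WT (SD, n = 3) and from 117530 ± 10191 to 174594 ± 22709 in Atf4AKO (SD, n = 3). Of the 10 subunits, 8 rose in Atf4WT and 7 in Atf4AKO, beside 17.0% and 14.8% of all tested genes. The medians of the 10 subunits were 0.62 and 0.59 on the log2 scale. Cox5a, a subunit on the matrix side to which Cox4 is bound, moved most, from 4836 to 7364 normalized counts over the 6 RT libraries to between 10544 and 15887 over the 6 cold libraries. Its log2 fold change was 1.07 ± 0.16 (SE) in Atf4WT and 1.05 ± 0.16 in Atf4AKO, with adjusted p of 0.00098 and 0.0013. Cox7b, Cox5b, Cox7c and Cox6b1 followed in Atf4WT with log2 fold changes of 0.80, 0.74, 0.65 and 0.64, and each was higher in every cold library than in every RT library. Cox5b carries the zinc site of the complex. Cox6b1 sits on the side that faces cytochrome c.

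At the lower end stood Cox6a1 and Cox8a, which did not pass the test in either genotype. Cox8a went from 13730, 18129 and 18223 at RT to 15568, 21920 and 21981 after cold in Atf4WT, a log2 fold change of 0.24 ± 0.17 (adjusted p = 0.30). Cox6a1 had a log2 fold change of 0.26 ± 0.19 in Atf4WT (adjusted p = 0.31) and of 0.35 ± 0.19 in Atf4AKO (adjusted p = 0.19). The RT and cold libraries of both genes overlapped in both genotypes. Both are subunits for which a tissue isoform exists, as are Cox4i1, Cox7a2 and Cox6b1, which rose in both genotypes. Within Atf4WT cold, replicate 2 had the lowest value for 10 of the 10 ubiquitous subunits and 22 of all 29 members, and within Atf4WT RT, replicate 2 was lowest for 9 of the 10 and 23 of the 29. These libraries had the highest B cell and T cell sums of their groups and the lowest thermogenic and white adipocyte sums. Atf4WT RT replicate 2 also had the highest skeletal muscle sum, at 125588. The part of these features in the low values was not tested.

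Per kilobase of transcript, the subunits did not stand at 1 level. At RT in Atf4WT the mean normalized count per kilobase ran from 5221 for Cox7b through 9144 for Cox5b and 9244 for Cox5a to 30353 for Cox8a and 33407 for Cox4i1. After cold in Atf4WT, Cox4i1, which had the highest level per length in all 4 groups, reached 50139, and Cox5a reached 19323, above Cox5b at 15353. Lengths were those of the transcript matched to each listed accession.

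Of the 4 pairs of a tissue isoform and its ubiquitous partner, the ratio rose with cold for Cox7a1 and Cox8b, fell for Cox4i2 and did not pass the test for Cox6a2. Cox7a1 (chr7:30184144-30186078, plus strand, GRCm38) had 273, 411 and 375 normalized counts in Atf4WT at RT, and 1480.3, 1929 and 1193 after cold. In Atf4AKO it had 272, 267 and 188 at RT, and 1309.5, 2206 and 1506 after cold. All 6 cold libraries lay above all 6 RT libraries, with the lowest cold value well over the highest RT value. The log2 fold change was 2.11 ± 0.24 in Atf4WT (adjusted p = 0.00020) and 2.77 ± 0.24 in Atf4AKO (adjusted p = 5.4e-05). Its ubiquitous partner Cox7a2 (chr9:79755361-79759878, minus strand) went from 5508, 6353 and 4938 to 8145, 8267 and 6239 in Atf4WT and from 5444, 6393 and 6036 to 7504, 9917 and 7557 in Atf4AKO. In Atf4WT these libraries overlapped, and the log2 fold change of Cox7a2 was 0.43 ± 0.15 in Atf4WT (adjusted p = 0.044) and 0.47 ± 0.15 in Atf4AKO (adjusted p = 0.034).

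Per length, Cox7a1 made up 9.58 ± 1.82% of the pair in Atf4WT at RT and 25.3 ± 2.53% after cold (SD, n = 3). In Atf4AKO the share was 6.42 ± 1.39% at RT and 25.0 ± 2.27% after cold (SD, n = 3). The log2 ratio of Cox7a1 to Cox7a2 rose by 1.99 with cold, averaged over the genotypes, in all 12 libraries without overlap (two-sided exact permutation test within genotype, p = 0.005, the smallest that 400 arrangements allow, adjusted over 4 pairs p = 0.0067). A ratio within a library does not depend on how that library was scaled.

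Cox8b (chr7:140898945-140900446, minus strand) behaved alike in direction and started from a higher level. It had 2784, 2254 and 2103 normalized counts in Atf4WT at RT and 7168, 8091 and 4913 after cold. In Atf4AKO it had 1872, 3018 and 2870 at RT and 5419, 8715 and 6414 after cold. The lowest cold library was again above the highest RT library. The log2 fold change was 1.48 ± 0.24 in Atf4WT (adjusted p = 0.0012) and 1.41 ± 0.24 in Atf4AKO (adjusted p = 0.0019). With Cox8a at the values given above and at 16500, 20262 and 16593 in Atf4AKO at RT and 19671, 25103 and 20504 after cold, the per-length share of Cox8b went from 17.9 ± 1.72% to 33.9 ± 1.82% in Atf4WT and from 18.1 ± 3.09% to 32.2 ± 2.52% in Atf4AKO (SD, n = 3). The log2 ratio of Cox8b to Cox8a rose by 1.18 with cold (exact permutation test, p = 0.005, adjusted p = 0.0067).

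**Figure D2:**
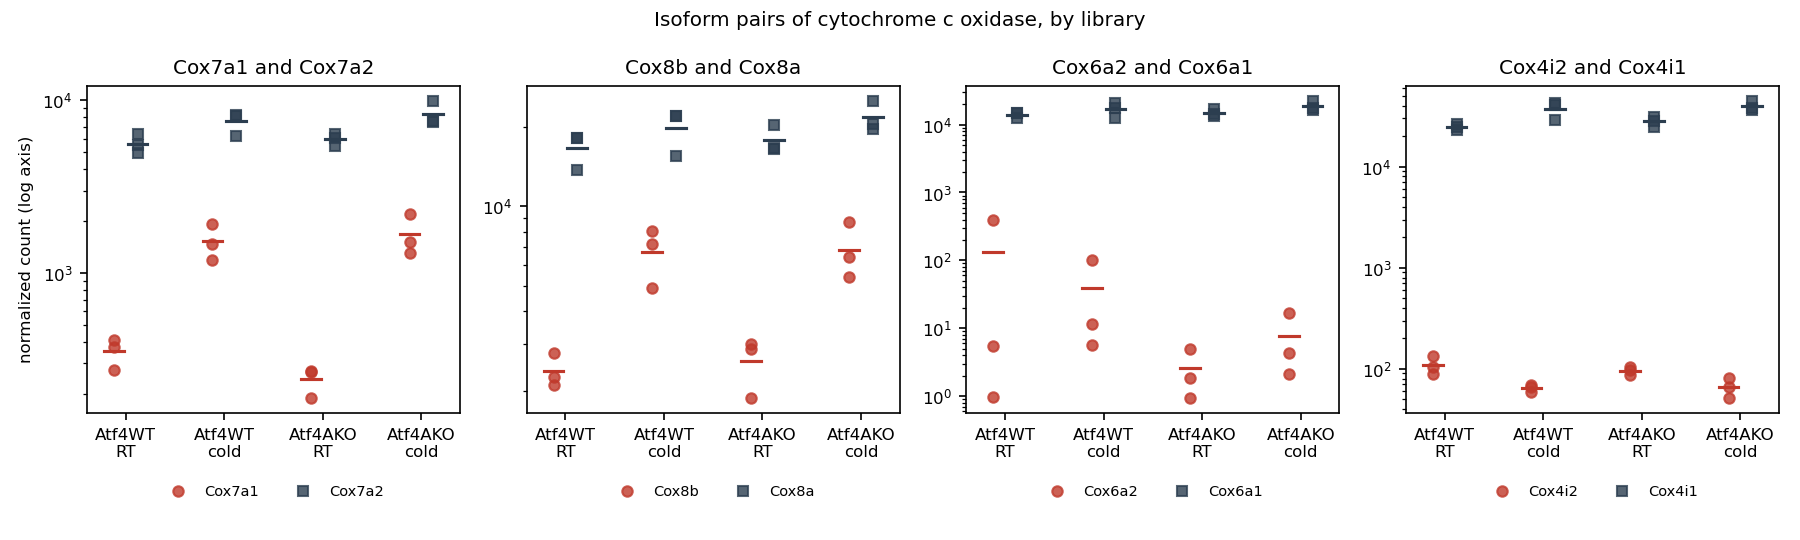
Normalized counts on a log axis in each of the 12 libraries for the tissue isoform (circles) and its ubiquitous partner (squares) of the 4 pairs, with a line at each group mean. Cox7a1 and Cox8b step up with cold in both genotypes, Cox4i2 steps down, and the Cox6a2 means in Atf4WT are set by 1 library each, at 389 and 99.6.

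Cox4i2 (chr2:152754173-152765037, plus strand) went the other way. It had 134, 104 and 89 normalized counts in Atf4WT at RT and 67, 69 and 59 after cold, and in Atf4AKO 86, 104 and 97 at RT and 51, 82 and 67 after cold. Every cold library was below every RT library, the closest pair being 81.6 and 86.4. The log2 fold change was -0.72 ± 0.22 in Atf4WT (adjusted p = 0.026) and -0.54 ± 0.22 in Atf4AKO (adjusted p = 0.087). Cox4i1, the ubiquitous form (chr8:120668222-120674207, plus strand), had 24855, 26487 and 23323 in Atf4WT at RT and 40745, 42436 and 28880 after cold, with 24793, 30864 and 28631 in Atf4AKO at RT and 36187, 44811 and 37833 after cold. Its log2 fold change was 0.57 ± 0.16 in Atf4WT (adjusted p = 0.019) and 0.50 ± 0.16 in Atf4AKO (adjusted p = 0.040). Cox4i2 was below 1% of the pair throughout, with per-length shares of 0.447 ± 0.0896% and 0.349 ± 0.00679% at RT in Atf4WT and Atf4AKO and of 0.181 ± 0.0252% and 0.170 ± 0.0227% after cold (SD, n = 3). The log2 ratio of Cox4i2 to Cox4i1 fell by 1.16 (exact permutation test, p = 0.005, adjusted p = 0.0067).

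Cox4i2 is known from vessel wall cells, so the markers of mural cells are given beside it. The 9 mural markers summed to between 15339 and 17547 at RT and to between 11209 and 12528 after cold. Of the 9, 2 fell in Atf4WT and 4 in Atf4AKO, beside 14.9% and 11.0% of all tested genes. Rgs5, a marker of pericytes, fell by 1.15 ± 0.15 on the log2 scale in Atf4WT and by 1.09 ± 0.15 in Atf4AKO. Kcnj8, Higd1b and Des had positive log2 fold changes in both genotypes, of 0.35, 0.32 and 0.16 in Atf4WT and 0.12, 0.10 and 0.61 in Atf4AKO, none of which passed the test. Des was highest of its group in each of the 3 libraries with muscle signal, at 3750, 1868 and 1317. The mural sum and the mural score include Des, and the RT sum of 17547 was that of Atf4WT RT replicate 2. With the mural score as a covariate the log2 fold change of Cox4i2 was -0.44 ± 0.32 in Atf4WT and -0.08 ± 0.45 in Atf4AKO. Neither passed the test. The mural score was 9.99 to 10.05 at RT and 9.76 to 9.94 after cold in Atf4WT. In Atf4AKO it was 9.93 to 10.02 and 9.66 to 9.78. Score and temperature therefore cannot be told apart in this fit. With the lymphocyte score as a covariate the log2 fold change of Cox4i2 was -0.23 ± 0.31 in Atf4WT and -0.63 ± 0.19 in Atf4AKO. The lymphocyte score did not overlap between RT and cold in Atf4WT either. The part of these cells in the fall of Cox4i2 was not tested.

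**Figure D3:**
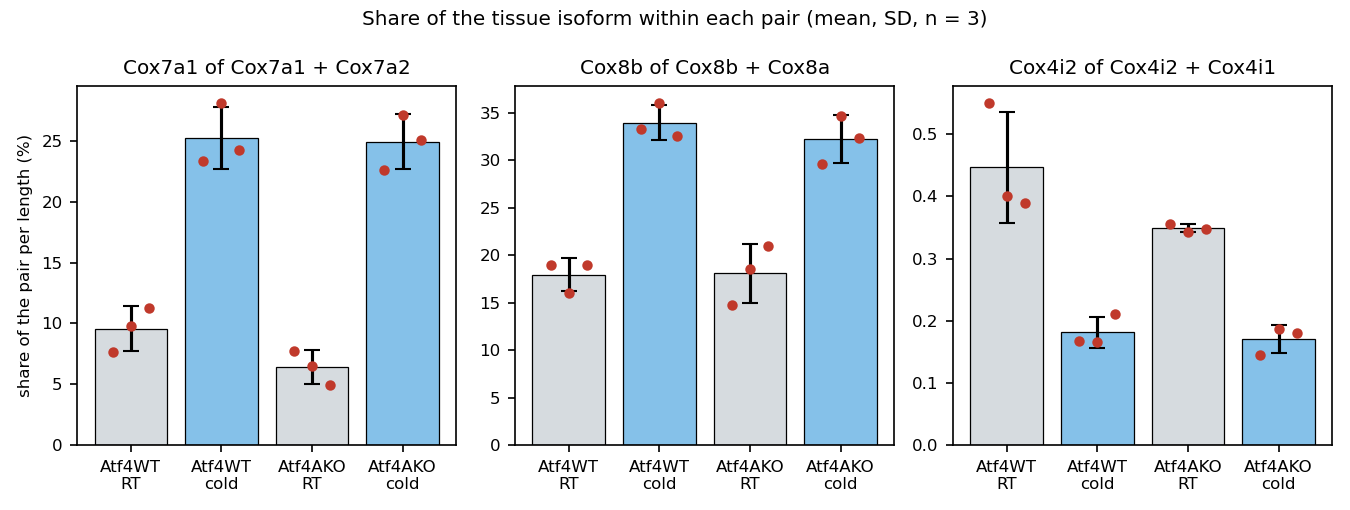
Per-length share of the tissue isoform in its pair, in percent, for Cox7a1, Cox8b and Cox4i2; bars are group means, error bars SD over 3 libraries and points the libraries. The Cox7a1 and Cox8b shares are higher after cold than at RT in both genotypes, from 9.58% to 25.3% and from 17.9% to 33.9% in Atf4WT, and the Cox4i2 share is lower.

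Cox6a2 (chr7:128205435-128206387, minus strand) was near the floor of detection in most libraries, and its high values lay in libraries with muscle signal. It had 5.51, 0.962 and 389 normalized counts in Atf4WT at RT, 1.86, 4.98 and 0.928 in Atf4AKO at RT, 99.6, 11.6 and 5.65 in Atf4WT after cold, and 4.25, 17.0 and 2.15 in Atf4AKO after cold. The 3 highest values were those of the 3 libraries with muscle signal. There, Tnnt3, a troponin of fast skeletal muscle, had 26896, 8697 and 1070.3 normalized counts, so that Cox6a2 stood at 1.45%, 1.15% and 1.59% of Tnnt3. In the other 9 libraries Tnnt3 had 10.2 to 43.3. The value of 17.0 rests on 15 reads, close to the 11 reads of Atf4WT cold replicate 1, where Tnnt3 had 26.4. Not every gene of the muscle list was raised with Tnnt3, Myl3 being at 10.2 in Atf4WT RT replicate 2. The ubiquitous partner Cox6a1 had between 12346 and 22385 normalized counts in all 12 libraries. The log2 ratio of Cox6a2 to Cox6a1 moved by 0.35 with cold (exact permutation test, p = 0.775, adjusted p = 0.775). The fitted log2 fold change of Cox6a2 in Atf4WT was 0.25 ± 1.67, and its sign turned under several alternatives.

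The values of Cox7a1 and Cox8b in the 3 libraries with muscle signal were mixed. Atf4AKO cold replicate 1 had the highest Cox7a1 and Cox8b of the 12 libraries, at 2206 and 8715, and Atf4WT cold replicate 0 lay between the other libraries of its group for both. Atf4WT RT replicate 2, with the highest muscle sum, had the lowest Cox8b of its group, at 2103, and a Cox7a1 of 375 between 273 and 411. Without the 3 libraries the log2 ratio rose by 2.05 for Cox7a1 and by 1.17 for Cox8b (exact permutation test, adjusted p = 0.022 for both). Their unadjusted p of 0.0167 was the smallest that 60 arrangements allow. The log2 fold change in Atf4WT was then 2.18 ± 0.28 for Cox7a1 and 1.33 ± 0.28 for Cox8b. With the lymphocyte score as a covariate these were 2.30 ± 0.41 and 2.02 ± 0.35, and with the mural score 2.52 ± 0.35 and 2.12 ± 0.28.

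**Figure D4:**
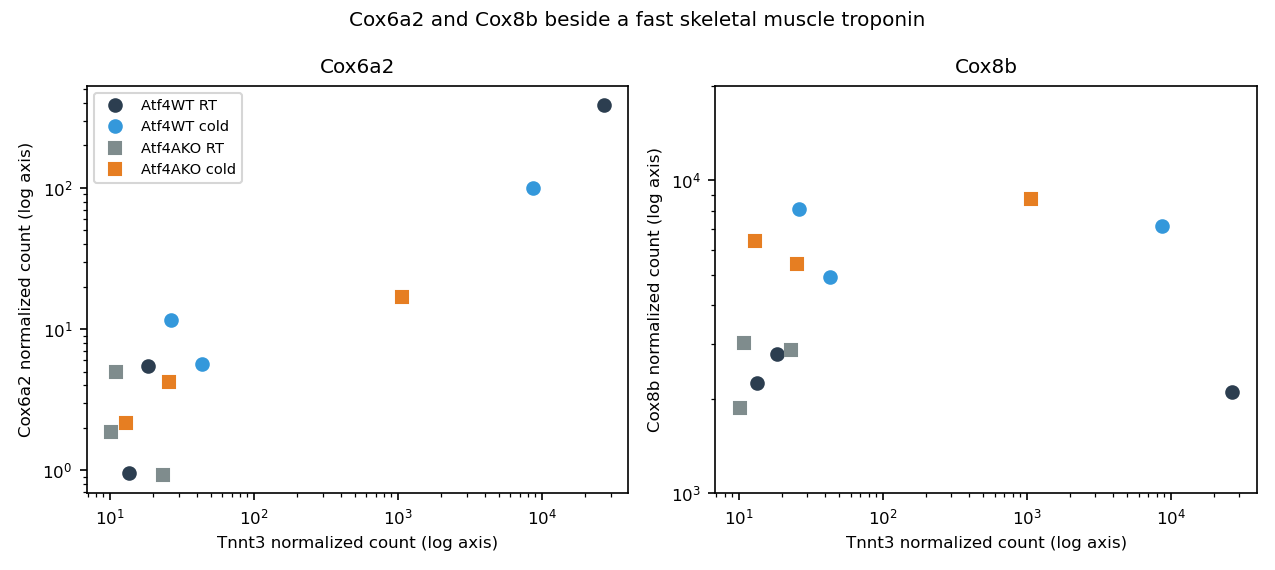
Normalized counts of Cox6a2 (left) and Cox8b (right) against Tnnt3 in the 12 libraries, both on log axes, with colour and shape for the 4 groups. Cox6a2 is highest, at 389, 99.6 and 17.0, in the 3 libraries with Tnnt3 of 1070.3 or more, while Cox8b is higher in the 6 cold libraries than in the 6 RT libraries, and the 3 libraries with high Tnnt3 hold both its highest value, 8715, and the lowest of Atf4WT at RT, 2103.

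The remaining tissue isoform, Cox6b2, had between 26.0 and 65.7 normalized counts over the 12 libraries with RT and cold overlapping, and log2 fold changes of 0.13 ± 0.32 and 0.41 ± 0.32 in Atf4WT and Atf4AKO. Cox7a2l, a relative of Cox7a, has been studied as a factor for joining complex IV to complex III. Its RNA rose from 3208, 3367 and 3405 to 4978, 4939 and 4442 in Atf4WT. In Atf4AKO the RNA rose from 3419, 3643 and 3560 to 4165, 5139 and 4426. The log2 fold changes were 0.52 ± 0.08 and 0.36 ± 0.08, with adjusted p of 0.0013 and 0.0098 in that order. Neither the Cox7a2l protein nor the joining of the complexes was measured in these data.

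Cytochrome c and both genes of heme A synthesis rose in both genotypes. Cycs (chr6:50562563-50566538, minus strand), the electron carrier that feeds the complex, had 7308, 7848 and 4968 normalized counts in Atf4WT at RT and 24698, 22100 and 22514 after cold. In Atf4AKO it had 8174, 8071 and 5954 at RT and 21353, 29843 and 24282 after cold. Its log2 fold change was 1.81 ± 0.19 in Atf4WT and 1.77 ± 0.19 in Atf4AKO (adjusted p = 0.00011 and 0.00014). Cox10 (chr11:63962627-64079468, minus strand), which attaches the farnesyl tail to heme on the way to heme A, had 387, 460 and 378 in Atf4WT at RT and 1202, 1108 and 1168 after cold. In Atf4AKO it had 473, 555 and 408 at RT and 1112, 1241 and 1405 after cold. Its log2 fold change was 1.51 ± 0.13 in Atf4WT and 1.39 ± 0.13 in Atf4AKO. Cox15, which completes heme A, rose by 0.45 ± 0.15 in Atf4WT and 0.64 ± 0.15 in Atf4AKO, with adjusted p of 0.040 and 0.010 in that order.

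All 6 copper delivery genes rose in Atf4WT and 5 in Atf4AKO, beside 17.0% and 14.8% of all tested genes. The medians of the 6 genes were 0.71 and 0.66 on the log2 scale. Cox11, which inserts copper into the Cox1 core subunit, had 384 to 534 normalized counts over the RT libraries and 759 to 1059 over the cold libraries, with log2 fold changes of 0.91 ± 0.13 and 1.07 ± 0.13. Cox17, the copper carrier of the intermembrane space, rose by 0.80 ± 0.18 and 0.70 ± 0.18, Cox16 by 0.62 ± 0.12 and 0.55 ± 0.12, Cox19 by 0.58 ± 0.12 and 0.60 ± 0.12, and Sco1 by 0.49 ± 0.12 and 0.62 ± 0.12. Sco2 had low normalized counts, of 10.1, 8.66 and 5.56 in Atf4WT at RT and 21.6, 22.2 and 23.5 after cold. In Atf4AKO they were 11.2, 18.9 and 9.28 at RT and 18.1, 24.9 and 27.9 after cold. It shares 856 exon bases with Tymp on the same strand, so these counts do not show the level of Sco2 RNA. Its log2 fold change was 1.40 ± 0.35 in Atf4WT (adjusted p = 0.012) and 0.84 ± 0.35 in Atf4AKO (adjusted p = 0.099), a difference of -0.55 ± 0.49 that did not pass the test.

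Among the other assembly factors, Cox20 and Cox18, which handle the Cox2 core subunit, rose in both genotypes, by 0.65 ± 0.15 and 0.38 ± 0.12 in Atf4WT. Cox14 had log2 fold changes of 0.35 ± 0.14 and 0.37 ± 0.14 (adjusted p = 0.075 and 0.072). Surf1, whose loss in humans causes Leigh syndrome, had 1458 to 1644 normalized counts at RT and 1522 to 2016 after cold, with log2 fold changes of 0.10 ± 0.09 and 0.23 ± 0.09 (adjusted p = 0.43 and 0.080).

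A list of 30 other complex IV genes had 21 members in the table, and 12 of them rose in each genotype while none fell. Of all tested genes, 17.0% rose and 14.9% fell in Atf4WT, and 14.8% rose and 11.0% fell in Atf4AKO. Hccs, which attaches heme to cytochrome c, rose by 1.39 ± 0.11 in Atf4WT and 1.53 ± 0.11 in Atf4AKO. Cmc2 rose by 1.26 ± 0.19, Coa7 by 0.99 ± 0.18, Lrpprc, which stabilizes mitochondrial messenger RNA, by 0.87 ± 0.13, Taco1, a translational activator of Cox1, by 0.79 ± 0.14, Oxa1l by 0.78 ± 0.13, Slirp by 0.69 ± 0.12, Higd1a by 0.69 ± 0.14, Ndufa4, a subunit of complex IV despite its name, by 0.58 ± 0.15, Smim20 by 0.57 ± 0.11, Coa5 by 0.54 ± 0.10 and Coa6 by 0.49 ± 0.15 in Atf4WT. In Atf4AKO Coa6 did not pass the test and Pet100 did, with 0.46 ± 0.13. The mitochondrially encoded core subunits mt-Co1, mt-Co2 and mt-Co3 were not analysed here. The median log2 fold change of the list was 0.54 in Atf4WT and 0.51 in Atf4AKO. For the other complexes, medians in Atf4WT and Atf4AKO were 0.60 and 0.62 over 34 complex I genes, 0.86 and 0.81 over 9 complex III genes, and 0.62 and 0.61 over 17 ATP synthase genes.

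Between genotypes, no member passed the test at RT, after cold or for the difference of the cold responses, where 0.00746%, 0.0298% and 0.0% of all tested genes did. At an unadjusted p under 0.05 the counts of members were 1, 0 and 0, beside 205, 1571 and 928 of the 13404 tested genes. Neither edgeR nor DESeq2 called any member. After cold, 27 of the 29 members had a higher mean log2 value in Atf4AKO, with a median difference of 0.13 against 0.05 over all tested genes. Of the 13404 genes tested, 7955 were higher in Atf4AKO. The other complexes were alike, with 29 of 34 complex I, 9 of 9 complex III and 14 of 17 ATP synthase genes higher. Their medians were 0.13, 0.13 and 0.12. The largest positive difference among the members was that of Cox15, at 0.30 ± 0.15 (adjusted p = 0.47). For the 10 ubiquitous subunits the differences after cold ran from 0.03 to 0.20, with standard errors of 0.12 to 0.19. At RT the member under an unadjusted p of 0.05 was Cox7a1, which was lower in Atf4AKO by a log2 difference of -0.54 ± 0.24 (limma, adjusted p = 1.0), its Atf4AKO values of 188, 267 and 272 lying just under the lowest Atf4WT value of 273. The rise of Cox7a1 with cold was larger in Atf4AKO by 0.65 ± 0.34 (adjusted p = 0.82). The log2 ratios of the 4 pairs differed between Atf4AKO and Atf4WT, over both temperatures, by -0.33 for Cox7a1, -0.06 for Cox8b, -2.12 for Cox6a2 and -0.21 for Cox4i2 (exact permutation test within temperature, adjusted p = 0.17, 0.625, 0.17 and 0.17). That of Cox6a2 was -0.95 without Atf4WT RT replicate 2 and -0.69 without the 3 libraries with muscle signal. That of Cox4i2 was -0.13 without Atf4WT RT replicate 0. That of Cox7a1 was -0.63 at RT alone and -0.02 after cold alone, and that of Cox4i2 -0.34 and -0.09.

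Of the 23 calls in Atf4WT, 13 held under all 26 alternative fits at the same threshold, and of the 20 in Atf4AKO, 11 did. The genes that held in both genotypes were Cox7a1, Cox8b, Cycs, Cox10, Cox11, Cox19, Cox5a, Cox5b, Cox7b and Cox7c. Without the 3 libraries with muscle signal, 15 members were called in Atf4WT and 16 in Atf4AKO. In Atf4WT, leaving out Atf4WT RT replicate 0 or Atf4WT cold replicate 1 each ended the call of Cox18, Cox4i1, Cox4i2, Cox6c and Cox7a2, and leaving out Atf4WT cold replicate 0 ended those of Cox15, Cox18, Cox4i1, Cox6c and Cox7a2. Leaving out Atf4WT RT replicate 2 ended the calls of Cox15, Cox18, Cox4i1 and Cox7a2, Atf4WT RT replicate 1 those of Cox15 and Cox4i2, Atf4WT cold replicate 2 those of Cox15 and Cox4i2, and Atf4AKO RT replicate 0 those of Cox15 and Cox7a2, while Cox15 was also lost without Atf4WT cold replicate 1 and Cox7a2 without Atf4AKO RT replicate 1, Atf4AKO RT replicate 2 or Atf4AKO cold replicate 2. In Atf4AKO, leaving out Atf4AKO cold replicate 1 ended the calls of Cox17, Cox18, Cox4i1 and Cox7a2, Atf4AKO RT replicate 0 those of Cox17, Cox4i1 and Cox7a2, Atf4AKO RT replicate 2 those of Cox18, Cox4i1 and Cox7a2, Atf4AKO RT replicate 1 that of Cox17, and Atf4AKO cold replicate 2, Atf4WT RT replicate 0 or Atf4WT RT replicate 1 that of Cox4i1. The adjusted p of a gene that lost its call in this way was at most 0.14 in either genotype.

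The exons of 12 members overlapped another gene in the annotation, among them Sco2, which shared 829 bases with Ncaph2 on the opposite strand and 856 with Tymp on the same strand, Cox11, which shared 688 with Tom1l1 on the opposite strand, and Cox20, which shared 804 with Hnrnpu on the opposite strand. Cox16 shared 2130 bases with Gm20498 on the same strand. Cox6a2 shared 70 bases with Itgad. The library kit kept the strand, but the strand setting of the counting is not given in the sources used here, so whether reads from opposite-strand partners were kept apart is unknown. How many reads from bases shared on the same strand were assigned to the partner or left out is also unknown. Only uniquely mapped reads were counted, and small subunit genes and Cycs have processed pseudogenes, so their counts are uncertain to that extent.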

How the data were processed

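Bulk RNA-seq of mouse iWAT was deposited as 1 table of 12 libraries, 3 in each of 4 groups. Per the study's methods, the authors trimmed reads with SOAPnuke, used STAR for alignment to mm10, assigned the uniquely mapped ones to genes by featureCounts and normalized with pyDESeq2, versions not given in the sources used here. The deposited values are a normalized signal, reads divided by a size factor. Each value was a whole multiple of what 1 read is worth in its library for 100% of values (tolerance 0.1 reads). The 14159 listed genes were filtered to the 13404 with a mean of at least 10, and log2(value + 1) was tested with limma 3.58.1 (R 4.3.3, 4 group means, trend, Benjamini-Hochberg over all tested genes). Fold changes are on that scale and understate low genes. The recovered reads were also tested with edgeR 4.0.16 and DESeq2 1.42.0, and the fits were tested on simulated data. Replicate pairs differed by a chi-square per degree of freedom of 34.5 to 69.8, so no library was a duplicate. Groups were taken from the sample titles. Isoform ratios were compared by two-sided exact permutation of temperature within genotype, or of genotype within temperature, which cannot go below p = 0.005. Alternatives were the pseudocount, the filter, the scaling, the samples in the model, array weights, the replicate block, 3 marker scores as covariates, the study's threshold (fold over 1.5 with an unadjusted p under 0.05) and each library left out. The alternative without 3 libraries was chosen after seeing the data. Every member was named, with the isoform pairs in full and other complex IV genes where called. Members, lists and tests were chosen with earlier results of these data known. Gene positions and lengths came from GENCODE on GRCm38.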

Additional observations from a re-analysis of the deposited data

How the results depend on the processing

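The count of members called after cold stayed within 1.5 times of 23 in Atf4WT and of 20 in Atf4AKO under every alternative except that 15 were called in Atf4WT without the 3 libraries with muscle signal. Leaving out 1 library gave 17 to 23 calls in Atf4WT and 16 to 21 in Atf4AKO, and the genotype counts stayed at 0. The same-number libraries correlated in their deviations by -0.19 to 0.39, over 0.1 in 9 of 18 pairs. Libraries with different numbers correlated by -0.47 to 0.31, over 0.1 in 9 of 36 pairs. What the numbers mark is not given in the labels. The numbers were not taken as pairing in the main fits, and the replicate block was an alternative. With the replicate block, 22 members were called in Atf4WT and 21 in Atf4AKO. The Cox7a1 ratio rose by 1.99 (exact permutation test within blocks, adjusted p = 0.042, from the smallest p that this test allows). The median log2 fold change moved to 0.99 with the lymphocyte score and to 0.94 with the mural score in Atf4WT, and to 1.18 with the mural score in Atf4AKO. In these 3 cases the score did not overlap between RT and cold, so score and temperature cannot be told apart. Within 1 genotype the exact test has 20 arrangements and cannot go below 0.10, and the ratios rose by 2.29 and 1.68 for Cox7a1 and by 1.12 and 1.24 for Cox8b in Atf4AKO and Atf4WT, while that of Cox4i2 changed by -1.04 and -1.29. Leaving out 1 library gave ranges of 1.90 to 2.07 for Cox7a1, 1.09 to 1.25 for Cox8b and -1.22 to -1.08 for Cox4i2. Cox6a2 turned sign. Its log2 fold change in Atf4WT was -0.14 with a pseudocount of 5, -1.52 with the lymphocyte score, -1.80 with edgeR, -1.76 with DESeq2, -0.44 without Atf4WT RT replicate 0, -1.31 without Atf4WT RT replicate 1 and -0.90 without Atf4WT cold replicate 0, the highest without 1 library being 2.51. Its ratio was -0.066 with a pseudocount of 5, -0.0057 in Atf4WT alone, and between -0.45 and 1.53 without 1 library, -0.02, -0.45 and -0.20 being those without the same 3 libraries. Cox6b2 turned to -0.07 without Atf4WT RT replicate 1 and to -0.12 without Atf4WT cold replicate 0, the highest without 1 library being 0.29. The Cox15 difference after cold was -0.027 with the lymphocyte score. The Cox8b ratio between genotypes was 0.0024 at RT alone and between -0.125 and 0.027 without 1 library, 0.027 being without Atf4AKO RT replicate 0. The causes were not tested. Low counts limit Cox6a2 and Sco2.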
